A study of Sus scrofa with 16 samples.

Results

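ssc-miR-132 and ssc-miR-212 were examined in the ovaries of Large White sows. Both were found by name in the count table, where they are 2 of 1940 entries (216 known and 1724 predicted miRNAs), and each was measured in all 16 libraries. They were chosen as miRNAs known to be induced by gonadotropins. The labels give no hormone treatment and hormone levels were not analysed here, so the cycle phase of the sow was the only hormonal information.

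miRNAs are short RNAs that lower the stability and translation of mRNAs with which they pair, mainly through a stretch near their 5′ end called the seed. miR-132 and miR-212 are processed from a single primary transcript and share their seed. Their transcription is driven by CREB, the factor activated through cAMP and protein kinase A. Luteinizing hormone and human chorionic gonadotropin act through this route in the ovary, where both miRNAs are known to rise in granulosa cells after the hormone is given. They are also well known in neurons. In the RefSeq gene table of the pig assembly Sscrofa11.1, MIR132 and MIR212 are next to each other on chromosome 12, between OVCA2 and HIC1. The counts were made on another assembly, Sscrofa10.2, so no coordinates are given.

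Small RNA was sequenced from ovarian tissue of Canadian Large White sows of high or low fecundity, judged by the total number of piglets born. Ovaries were taken in the luteal phase on day 14 after estrus (LH, high fecundity; LL, low fecundity) or in the follicular phase on day 20 (FH, high; FL, low), with 4 unrelated sows and 1 library per sow in each group. No treatment or genetic change is stated, and the sows shared breed, herd and rearing conditions. High-fecundity sows were mostly of higher parity than low-fecundity sows, and in the luteal phase parity and fecundity cannot be told apart. Whether a whole ovary or a part of it was used is not stated. Ovarian tissue holds follicles, corpora lutea, stroma and vessels in unknown proportions. Fewer cells of a type and less RNA per cell therefore cannot be told apart in any value here.

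Total counts ranged from 8998496 to 37194836 per library (median 17221950.5). Levels are given as CPM, counts relative to library size, after scaling by TMM, a method that equalises the typical miRNA between libraries. The lowest count of ssc-miR-132 in a library was 318 and that of ssc-miR-212 was 43, well above a floor of 3 counts, which corresponds to 0.0807 to 0.333 CPM. Such floors cover counting error only. The gonadal miRNA ssc-miR-202-5p was present in every library. Its luteal levels were 1930 ± 817 CPM in LH and 2203 ± 1152 in LL, and its follicular levels 802 ± 499 in FH and 323 ± 217 in FL (SD, n = 4). Two-group comparisons and their combinations were tested with the quasi-likelihood test of edgeR over all miRNAs that passed a filter on low counts. A miRNA passed the threshold when its unadjusted P was under 0.05 and its level changed by 1 or more on the log2 scale. The Benjamini-Hochberg adjusted p is given beside each P.

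Several libraries were more like another group than their own, or stood apart in a marker list. LH1 had a mean correlation of 0.958 with the LL libraries and 0.928 with the other LH libraries, over log2 levels of the known miRNAs. FH1 had 0.937 with the LL libraries and 0.937 with the other FH libraries, where FH2, FH3 and FH4 had 0.951 to 0.962 with their own group. Of 56 known miRNAs that differed between LL and FL in edgeR with an adjusted p under 0.05, 50 were nearer to the LL mean than to the FL mean in LH1, against 36 in LH3, 20 in LH2 and 18 in LH4. In FH1 the number was 19, against 4 to 12 in the other FH sows. FL1 and FL3 had 0.959 and 0.958 with the FH libraries and 0.911 and 0.927 with the other FL libraries. The 3 miRNAs of an oviduct or ciliated epithelium list found in the table summed to 21535 CPM in LH4, 7407 in FL2 and 15709 in FL4, against 25.3 to 252 CPM in the other 13 libraries. FH1 decides several values below, which are given with and without it, and the values without the other libraries are given where they change a call.

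ssc-miR-132 was highest in the low-fecundity luteal ovaries. It stood at 182 CPM in LL1, 322 in LL2, 179.7 in LL3 and 198 in LL4, a mean of 220.4 ± 68.0 (SD, n = 4). Among the LH sows, LH1 stood at 176 CPM, LH3 at 116, LH4 at 72.6 and LH2 at 37.2, with a mean of 101 ± 59.96. All 4 LL sows were thus above all 4 LH sows, although LH1 came within a few CPM of the lowest LL sow. In FH the levels were 257 CPM in FH1, 35.9 in FH2, 37.9 in FH3 and 38.4 in FH4. These sows did not form a single level, since FH1 exceeded every other library but LL2 while the other 3 averaged 37.4 ± 1.34 (SD, n = 3). In FL the levels were 64.5 CPM in FL1, 54.7 in FL2, 109.8 in FL3 and 60.5 in FL4, with a mean of 72.4 ± 25.3. All 4 FL sows lay above FH2, FH3 and FH4 and below FH1. By group mean the order was LL, LH, FH (92.3 ± 110) and FL. By median it was LL (190.1), LH (94.5), FL (62.5) and FH (38.2), and LH, FH and FL overlapped one another.

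ssc-miR-212 was less abundant than ssc-miR-132 and was also highest in LL. In LL it stood at 45.8 CPM in LL1, 44.9 in LL2, 46.6 in LL3 and 41.2 in LL4, a mean of 44.6 ± 2.42 (SD, n = 4). The LL sows were the most alike of the 4 groups. Among the LH sows, LH3 stood at 38.3 CPM, LH1 at 30.9, LH4 at 23.5 and LH2 at 4.61, with a mean of 24.3 ± 14.5. LH2 was the lowest luteal sow for both miRNAs. In FH the levels were 80.4 CPM in FH1, 6.66 in FH2, 12.7 in FH3 and 9.66 in FH4, a mean of 27.4 ± 35.4, and FH1 held the highest level of all 16 sows. Without FH1 the mean of FH was 9.67 ± 3.02 (SD, n = 3). In FL the levels were 3.91 CPM in FL1, 4.19 in FL2, 24.8 in FL3 and 15.9 in FL4, with a mean of 12.2 ± 10.1. The FL sows fell into a low and a higher pair. By group mean the order was LL, FH, LH and FL, and by median LL (45.4), LH (27.2), FH (11.2) and FL (10.1), so FH and LH change places with FH1. FL3 was the highest FL sow for both miRNAs. Among the 216 known miRNAs ranked by mean CPM over all libraries, ssc-miR-132 was number 109 and ssc-miR-212 number 154. Both were nearest the top in LL (94 and 134) and nearest the bottom in FL (124 and 167).

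**Figure D1:**
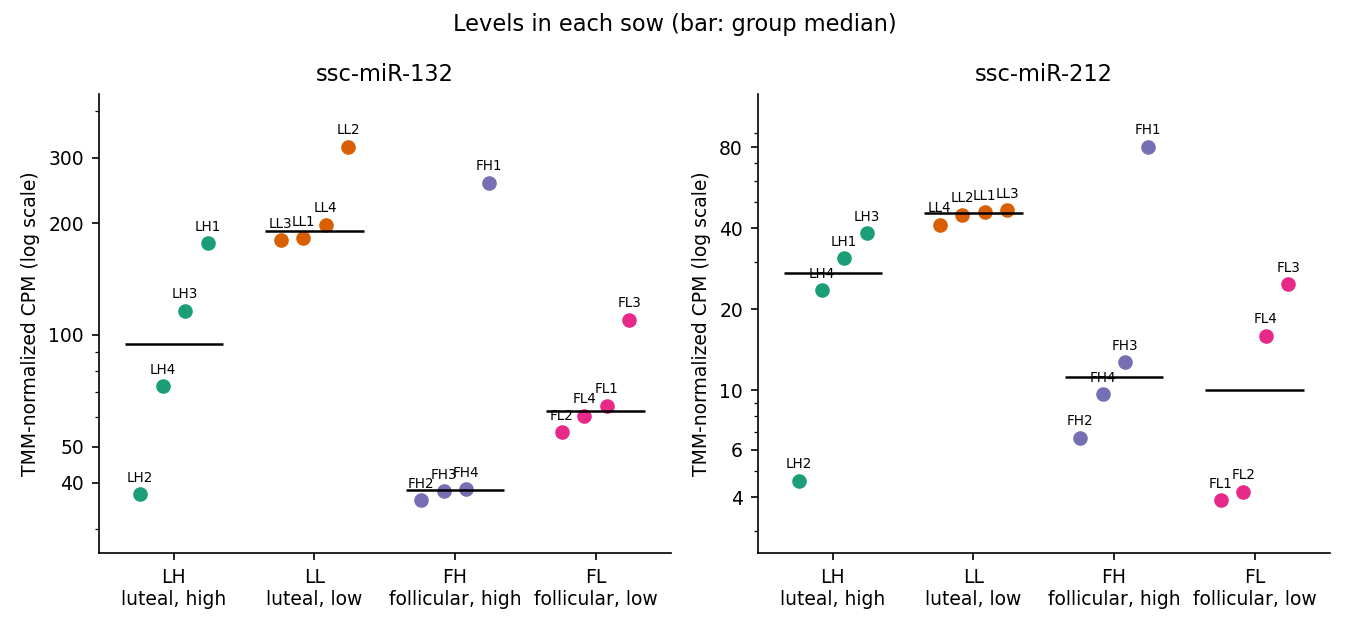
Levels of ssc-miR-132 (left) and ssc-miR-212 (right) in each sow, in TMM-normalized CPM on a log axis, by group, with a bar at the group median (n = 4 sows a group). All LL sows lie above all LH and all FL sows for both miRNAs, and FH1 lies above the other FH sows, at 257 CPM for ssc-miR-132 and 80.4 for ssc-miR-212.

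The first comparison asked whether the luteal ovary differs with fecundity. ssc-miR-132 was higher in LL than in LH by 1.17 on the log2 scale (standard error 0.482, edgeR unadjusted P = 0.0417, adjusted p = 0.256), which passed the threshold but not the adjustment. Of 362 miRNAs tested in LH vs. LL, 47 (13.0%) passed that threshold and 24 (6.63%) did so with the higher level in LL. ssc-miR-212 differed by 0.92 on the log2 scale (standard error 0.578, edgeR unadjusted P = 0.148, adjusted p = 0.454) and did not pass. On the scale of log2(CPM + 1), every LL sow exceeded every LH sow for both miRNAs. The mean differences were 1.30 for ssc-miR-132 and 1.16 for ssc-miR-212, each with an exact two-sided permutation p of 0.0286, the smallest that 4 against 4 sows allow, and of 0.0571 after adjustment over 4 comparisons. Of the 362 miRNAs, 34 (9.39%) had every LL library above every LH library. The median log2 fold change of all 362 was 0.15, and relative to it ssc-miR-132 stood at 1.01 and ssc-miR-212 at 0.77.

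The call of ssc-miR-132 in LH vs. LL rested on few sows. With 1 sow left out at a time the log2 fold change stayed between 0.86 and 1.55, and it passed the threshold in 1 of 8 such fits, the one without LH1 (1.55). In that fit 94 of 418 miRNAs passed, 57 of them with the higher level in LL, so the background of this comparison rose as well, and without LL4 it was 71 of 401. Without LH4, the library with the high oviduct sum, ssc-miR-132 was at 1.00 (unadjusted P = 0.113 in edgeR) and ssc-miR-212 at 0.85.

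Members of several marker lists moved with LH vs. LL. The 6 muscle miRNAs summed to 2155 to 3256 CPM in LH and 449 to 984 CPM in LL, with ssc-miR-208b at 0 in every LL library and in 3 of the LH libraries. Of 5 tested, ssc-miR-1 (-2.24) and ssc-miR-133b (-1.77) passed the threshold with the lower level in LL, while ssc-miR-499-5p had 0.74 in the opposite direction and did not pass. The oviduct miRNAs summed to 64.2 to 135 CPM in LH1, LH2 and LH3, 21535 CPM in LH4 and 25.3 to 63.4 CPM in LL, and 1 of 3 tested, ssc-miR-34c, passed with the lower level in LL. The neural list, which matters because both miRNAs are abundant in neurons, summed to 363 to 670 CPM in LH and 407 to 609 CPM in LL (7 of 7 members in the table), and its defining member ssc-miR-124a was at 0 in every luteal library. Of its 6 members tested, ssc-miR-9 passed with the lower level in LL, by a log2 fold change of -1.27 (unadjusted P = 0.0186 and adjusted p = 0.240 in edgeR). The list did not move one way. Of the 6, 4 were higher in LL, ssc-miR-137 the most (1.08), and none of these 4 passed. The 4 leukocyte miRNAs in the table summed to 827 to 1370 CPM in LH and 1221 to 1941 CPM in LL, with ssc-miR-142-5p at 0 in all 4 LH libraries and at a median of 236 CPM in LL, where 1 library was at 0. Of the 3 tested, ssc-miR-146a-5p was higher in LL (0.41), ssc-miR-150 (-1.34) and ssc-miR-155-5p (-0.15) were lower, and none passed. The endothelial miRNA ssc-miR-126-5p stood at 12105 ± 6773 CPM in LH and 19305 ± 5237 CPM in LL (SD, n = 4), a log2 fold change of 0.68 that did not pass. The 2 erythrocyte miRNAs in the table summed to 36.4 to 186 CPM in LH and 53.3 to 112 CPM in LL. The part of these lists in the result was not tested.

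**Figure D2:**
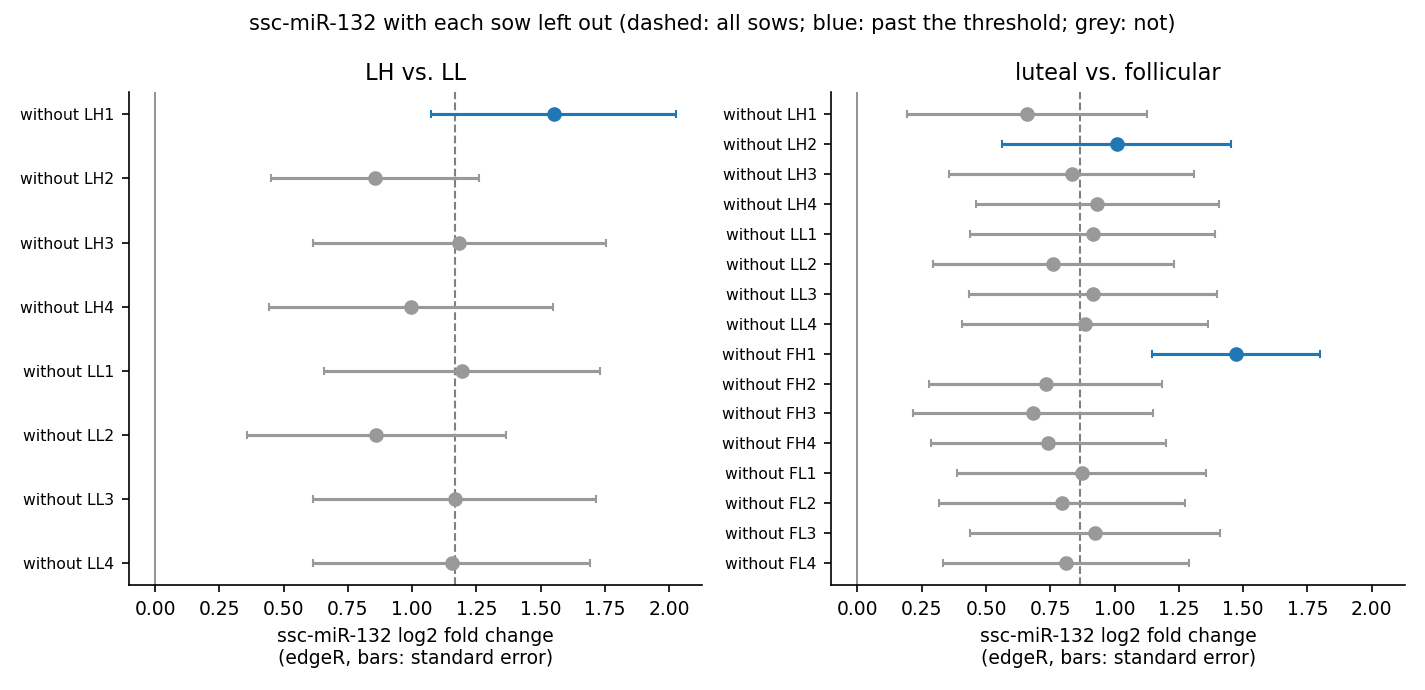
Log2 fold change of ssc-miR-132 from edgeR (point) with its standard error (bar) when each sow is left out in turn, for LL over LH (left) and for luteal over follicular (right), with the value from all sows as a dashed line. Blue points passed the threshold, which for LH vs. LL happened only without LH1 (1.55) and for the phases only without LH2 (1.01) or FH1 (1.47).

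In the follicular phase neither miRNA passed the threshold for fecundity, with or without FH1, except ssc-miR-212 when parity was a covariate (-2.74, unadjusted P = 0.0492 and adjusted p = 0.999 in edgeR, over a range of 0.436 to 0.999). For ssc-miR-132 the log2 fold change of FL over FH was -0.40 (standard error 0.745, edgeR unadjusted P = 0.607, adjusted p = 0.874), and for ssc-miR-212 it was -1.29 (standard error 0.978, unadjusted P = 0.226, adjusted p = 0.704). In this comparison 19 of 307 miRNAs (6.19%) passed the threshold. The exact permutation p was 0.771 for ssc-miR-132 and 0.514 for ssc-miR-212. Without FH1 the values turned to 0.90 for ssc-miR-132 (standard error 0.386, edgeR unadjusted P = 0.0548, adjusted p = 0.675) and 0.21 for ssc-miR-212. The adjusted p of ssc-miR-132 ranged from 0.675 to 0.999 over the alternatives that gave one. DESeq2 with all follicular sows, with or without the filter, gave -0.40 for ssc-miR-132 but no P. The threshold was passed without FH1 by 17 of 325 miRNAs (5.23%), neither of the pair among them. All 4 FL sows then lay above the 3 FH sows for ssc-miR-132, with an exact permutation p of 0.0571, the smallest that 3 against 4 sows allow. The share of all miRNAs with this separation was not computed without FH1, so how unusual it is cannot be told. For ssc-miR-212 the groups overlapped, with a mean difference of -0.02 on the scale of log2(CPM + 1).

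In the marker lists FH1 lay at an end of the FH range for some lists and inside it for others. Its summed muscle miRNAs (1883 CPM), leukocyte miRNAs (1568 CPM) and oviduct miRNAs (116 CPM) were the lowest of the 4 FH libraries. Its neural miRNAs summed to 295 CPM, within the FH range of 226 to 403 CPM, and ssc-miR-124a was at 0 in every FH library. The gonadal pair ssc-miR-202-5p and ssc-miR-383 summed to 1146 CPM in FH1, within the FH range of 269 to 1303 CPM. This sum is in effect that of ssc-miR-202-5p, since ssc-miR-383 averaged 0.832 CPM in FH. The endothelial miRNA ssc-miR-126-5p was at 11872 CPM in FH1, the highest of an FH range that began at 8134 CPM, and the 2 erythrocyte miRNAs in the table summed to 69.997 CPM, the highest of a range that began at 32.1 CPM. The part of these differences in the level of FH1 was not tested.

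The next comparisons asked how the ovary differs between the phases. In low-fecundity sows both miRNAs were higher in the luteal phase. ssc-miR-132 had a log2 fold change of LL over FL of 1.61 (standard error 0.663, edgeR unadjusted P = 0.0294, adjusted p = 0.110), which passed the threshold but not the adjustment. ssc-miR-212 had 1.87 (standard error 0.878, edgeR unadjusted P = 0.0511, adjusted p = 0.158) and narrowly missed it. Differences were common here, since 134 of 445 miRNAs (30.1%) passed the threshold, 61 of them (13.7%) with the higher level in LL. All 4 LL sows were above all 4 FL sows for both miRNAs, as they were for 50 of the 445 (11.2%). The mean differences of log2(CPM + 1) were 1.60 and 2.15, each with an exact permutation p of 0.0286 and an adjusted p of 0.0571. LL vs. FL and LH vs. LL share the 4 LL libraries, so they are not separate evidence of the high level in LL. The call of ssc-miR-132 was lost without LL2 (1.37), FL2 (1.44) or FL4 (1.48), and ssc-miR-212 passed without FL3 (2.53). The adjustment depended on the fit. With the 8 LL and FL libraries alone ssc-miR-132 was at 1.70 with an adjusted p of 0.0128 in edgeR and ssc-miR-212 at 2.06 with 0.0538, where 60 of 339 miRNAs had an adjusted p under 0.05. In DESeq2 on all 16 libraries the adjusted p was 0.0421 and 0.0492, where 138 of 445 did. Over all alternatives the adjusted p ranged from 0.0128 to 1.00 for ssc-miR-132 and from 0.0492 to 1.00 for ssc-miR-212.

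The marker lists moved in this comparison too. Muscle miRNAs summed to 565 to 3034 CPM in FL against 449 to 984 CPM in LL. They did not move one way, since 4 of 5 tested passed with the lower level in LL, and ssc-miR-499-5p passed with the higher one (1.55, adjusted p = 0.00858 in edgeR). Oviduct miRNAs were low in FL1 and FL3 (84.3 and 129 CPM) and high in FL2 and FL4 (7407 and 15709 CPM), and all 3 passed with the lower level in LL. The gonadal pair summed to 70.4 to 596 CPM in FL and 1328 to 3844 CPM in LL, nearly all of it ssc-miR-202-5p. Its other member, ssc-miR-383, was near the floor, with means of 0.209 CPM in LL and 1.81 in FL. It went in the opposite direction (-3.08) and did not pass. Neural miRNAs summed to 216 to 567 CPM in FL against 407 to 609 CPM in LL, with ssc-miR-137 higher in LL and ssc-miR-138 and ssc-miR-9 lower. Leukocyte miRNAs summed to 1489 to 2994 CPM in FL against 1221 to 1941 CPM in LL. Of 4 tested, only ssc-miR-150 passed, with the lower level in LL (-2.17, adjusted p = 0.0225 in edgeR). ssc-miR-155-5p was higher in LL (0.38) and did not pass. The endothelial miRNA ssc-miR-126-5p stood at 2461 to 11048 CPM in FL against 15242 to 26360 CPM in LL. It passed the threshold with the higher level in LL (adjusted p = 0.0373 in edgeR). The part of these lists in the result was not tested.

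In high-fecundity sows the phase comparison turned on FH1. With all sows the log2 fold change of LH over FH was 0.12 for ssc-miR-132 (standard error 0.647, edgeR unadjusted P = 0.850, adjusted p = 0.992) and -0.17 for ssc-miR-212 (standard error 0.850, unadjusted P = 0.845, adjusted p = 0.992), where 57 of 445 miRNAs (12.8%) passed the threshold. Without FH1 they were 1.36 (standard error 0.480, edgeR unadjusted P = 0.0136, adjusted p = 0.217; range over all alternatives 0.217 to 1.00) and 1.26 (unadjusted P = 0.115). ssc-miR-132 then passed the threshold, as did 67 of 525 miRNAs (12.8%). LH2, at 37.2 CPM, still lay among FH2, FH3 and FH4, and the exact permutation p without FH1 was 0.171 for ssc-miR-132 and 0.286 for ssc-miR-212. With all sows, of 5 muscle miRNAs tested, ssc-miR-133a-5p (-1.86) and ssc-miR-133b (-1.88) passed with the lower level in LH, and 2 were higher. Of 4 leukocyte miRNAs only ssc-miR-142-5p passed, at 0 in all LH libraries, and 1 was higher. Of 3 oviduct miRNAs only ssc-miR-34c passed, higher in LH (5.26), with ssc-miR-205 lower (-1.11). Without FH1 ssc-miR-34c did not pass and the others that had passed still did. The part of these lists in the result was not tested.

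Over both fecundity groups the luteal sows averaged 161 ± 87.3 CPM of ssc-miR-132 and the follicular sows 82.3 ± 74.5 CPM (SD, n = 8). The log2 fold change amounted to 0.87 (standard error 0.461, edgeR unadjusted P = 0.0812, adjusted p = 0.196), and for ssc-miR-212 it was 0.85 (standard error 0.605, unadjusted P = 0.181, adjusted p = 0.345). Neither passed the threshold, which 104 of 445 miRNAs (23.4%) did. In the permutation test over 8 against 8 sows, exact and two-sided, p was 0.0514 for ssc-miR-132 and 0.0682 for ssc-miR-212. Without FH1 the follicular mean of ssc-miR-132 was 57.4 ± 25.9 CPM (SD, n = 7). The log2 fold change was then 1.47 for ssc-miR-132 (standard error 0.326, edgeR unadjusted P = 5.4e-04, adjusted p = 0.00985; range over all alternatives 0.00985 to 0.999), which passed both the threshold and the adjustment. For ssc-miR-212 it was 1.57 (standard error 0.511, edgeR unadjusted P = 0.00872, adjusted p = 0.0542; range 0.0542 to 1.00), which passed the threshold alone. Without FH1, 142 of 525 miRNAs (27.0%) passed the threshold and 82 (15.6%) had an adjusted p under 0.05. For each miRNA 6 of 8 luteal sows then exceeded all 7 follicular sows, the exceptions being LH2 and LH4, and the exact permutation p was 0.00839 and 0.0124. The share of all miRNAs with such an order of sows was not computed. FH1 was left out after its values had been seen, so these are descriptions of what rests on that sow.

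Markers moved with this comparison as well. Without FH1 the muscle miRNAs ssc-miR-133b (-2.71), ssc-miR-133a-5p (-2.26) and ssc-miR-206 (-1.65), the oviduct list member ssc-miR-205 (-1.92) and the leukocyte miRNA ssc-miR-150 (-1.30) passed the threshold with the lower level in the luteal phase. ssc-miR-202-5p passed with the higher one (2.06). ssc-miR-142-5p also passed with the lower luteal level and was at 0 in all LH libraries. The lists did not move one way. Without FH1 the muscle miRNA ssc-miR-499-5p was higher in the luteal phase (0.97, edgeR adjusted p = 0.0185), short of the threshold. The leukocyte miRNA ssc-miR-155-5p (0.36) was also higher, and the gonadal ssc-miR-383 (-1.85) was lower, opposite to ssc-miR-202-5p, and neither passed. The part of these differences in the result was not tested.

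Whether the difference with fecundity changed with phase was tested as an interaction, (LL over LH) minus (FL over FH). It was 1.48 for ssc-miR-132 (standard error 0.921, edgeR unadjusted P = 0.129, adjusted p = 0.484) and 2.04 for ssc-miR-212 (standard error 1.21, unadjusted P = 0.115, adjusted p = 0.471), and neither passed the threshold, which 59 of 445 miRNAs (13.3%) did. Without FH1 the values fell to 0.22 and 0.62, with 63 of 525 miRNAs (12.0%) past the threshold. The difference with fecundity was thus not shown to differ between the phases for either miRNA.

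**Figure D3:**
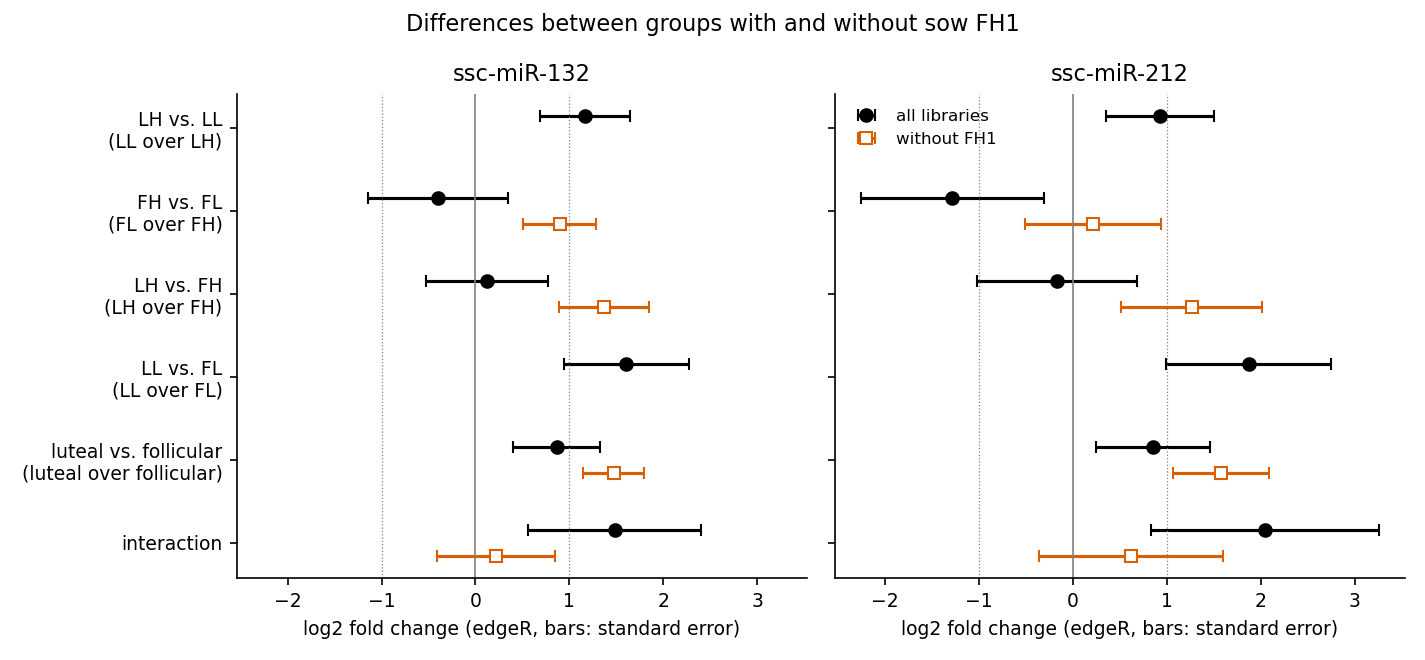
Log2 fold changes from edgeR (points) with standard errors (bars) for ssc-miR-132 (left) and ssc-miR-212 (right) in each comparison, with all libraries (black) and, where FH1 takes part, without it (orange squares). Dotted lines mark a log2 fold change of 1 in either direction. Leaving FH1 out moves the luteal over follicular value of ssc-miR-132 from 0.87 to 1.47 and its interaction from 1.48 to 0.22.

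The levels of both miRNAs varied together from sow to sow. After each group's mean was subtracted, Pearson's r between them was 0.852 over 16 libraries (permutation p = 0.00389, adjusted p = 0.0117) and Spearman's rho was 0.759 (permutation p = 0.0129, adjusted p = 0.0387). It was 0.780 without FH1 and LH1, the libraries farthest from the median of ssc-miR-132, and 0.770 without FH1 alone. Within the luteal sows it was 0.816 and within the follicular sows 0.869. Neither miRNA followed the share of clean reads per library, with r = 0.0892 for ssc-miR-132 (permutation p = 0.574) and r = -0.102 for ssc-miR-212 (permutation p = 0.765), rho = 0.165 (p = 0.479) and -0.141 (p = 0.598), and adjusted p of 0.765 for r and 0.598 for rho over the 3 relations computed.

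ssc-miR-132 gave more reads than ssc-miR-212 in every sow, which is a ratio of reads and carries any bias of ligation and amplification. The ratio was 16.4 in FL1 and 12.9 in FL2, and 2.98 to 8.03 in the other 14 libraries. FL1 and FL2 were the sows with the least ssc-miR-212. In terms of both miRNAs together, ssc-miR-212 made up 5.71% of the reads in FL1 and 25.1% in FH3, the extremes. The mean log2 ratio was 2.19 ± 0.690 in LH and 2.26 ± 0.411 in LL, and 1.92 ± 0.380 in FH and 2.95 ± 1.07 in FL (SD, n = 4). None of the 4 comparisons made differed beyond this spread, with exact permutation p-values of 0.886 for LH vs. LL, 0.171 for FH vs. FL, 0.486 for LH vs. FH and 0.343 for LL vs. FL (adjusted over the 4 comparisons 0.886, 0.648, 0.648 and 0.648). In FH1, where both were high, the ratio was 3.20, within the range of 2.98 to 5.35 in the other FH sows.

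**Figure D4:**
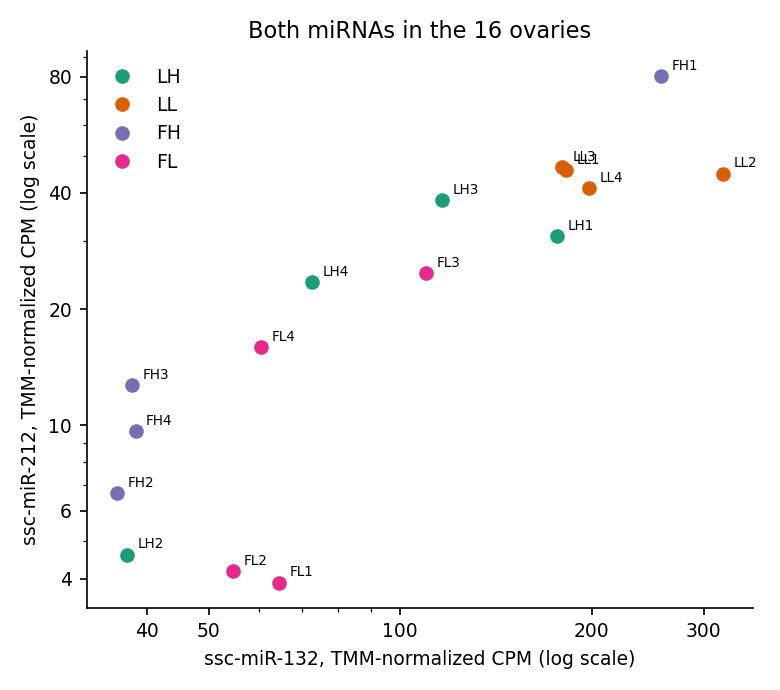
ssc-miR-212 against ssc-miR-132 in the 16 libraries, both in TMM-normalized CPM on log axes, coloured by group. LL sows and FH1 lie at the upper right, and FL1 and FL2 lie below the other sows of like ssc-miR-132, at 3.91 and 4.19 CPM of ssc-miR-212.

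The known miRNAs whose log2 levels were most like theirs were looked up over the 16 libraries, among 199 others. This likeness includes the differences between groups, and the libraries share depth and composition, so r is a description. For ssc-miR-132 the most like were ssc-miR-362 (r = 0.870), ssc-miR-212 (0.866) and ssc-miR-500 (0.833). For ssc-miR-212 they were ssc-miR-132 (0.866), ssc-miR-107 (0.852) and ssc-miR-21 (0.827). ssc-miR-362 stood at 171 ± 4.75 CPM in LL and 83.6 ± 29.6 in LH, at 67.9 ± 31.3 in FH and 65.0 ± 16.1 in FL (SD, n = 4), and at 114 CPM in FH1. ssc-miR-500 stood at 158 ± 27.5, 80.2 ± 27.3, 46.4 ± 25.7 and 58.9 ± 20.7 CPM in the same order. Like ssc-miR-132, both had their highest mean in LL and FH1 as the highest FH library. ssc-miR-107 stood at 1243 ± 155 CPM in LL and 536 ± 163 in LH, at 552 ± 210 in FH and 332 ± 49.8 in FL, with 852 CPM in FH1. ssc-miR-21, which is known to act against cell death in granulosa cells, averaged 181579 CPM in LL and 153926 in LH, 52174 in FH and 36408 in FL, and FH1 was the highest FH library at 92082 CPM. Without FH1 the values of r were 0.884 for ssc-miR-362, 0.869 for ssc-miR-500, 0.864 for ssc-miR-107 and 0.882 for ssc-miR-21.

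Other miRNAs known for their response to gonadotropins or for roles in granulosa and luteal cells were listed, and 11 of 13 were in the table (ssc-miR-96 and ssc-miR-503 were not). In edgeR none of the 10 tested passed the threshold in LH vs. LL and none of 11 did in FH vs. FL or in the interaction, with 0 at an unadjusted P under 0.05 in each, where 13.0%, 6.19% and 13.3% of all miRNAs passed. DESeq2 likewise gave 0 for fecundity in either phase, at the threshold and at an unadjusted P under 0.05, and 1 in the interaction. In LL vs. FL, 5 were higher in LL and 2 were lower, and 5 had an adjusted p under 0.05, against 30.1% of all miRNAs past the threshold and 69 of 445 (15.5%) with an adjusted p under 0.05. The list holds known miRNAs only. Of 200 known miRNAs tested there, 79 passed the threshold and 56 had an adjusted p under 0.05. The median log2 fold change of the list was 0.01 against 0.13 for all tested. Those higher in LL included ssc-miR-21 at 2.32 (standard error 0.532, edgeR adjusted p = 0.0119), ssc-miR-224 at 2.14 (0.682, adjusted p = 0.0479), a miRNA known to raise estradiol output of granulosa cells, and ssc-miR-30d at 1.14 (0.299, adjusted p = 0.0238). ssc-miR-182 and ssc-miR-183, which come from a single cluster, had 1.96 and 2.46 (edgeR adjusted p = 0.0959 and 0.0962). ssc-miR-214 (-1.13, edgeR adjusted p = 0.0439) and ssc-miR-378 (-1.21, adjusted p = 0.0104), the latter known to target aromatase, were lower in LL. In LH vs. FH, 4 of 11 were higher in LH (ssc-miR-182, ssc-miR-183, ssc-miR-21 and ssc-miR-30d) and 0 were lower, with 5 at an unadjusted P under 0.05, 0 at an adjusted p under 0.05 in edgeR and 2 in DESeq2, where 57 of all 445 miRNAs (12.8%) passed the threshold. Over both fecundity groups 5 of 11 were higher in the luteal phase and 0 were lower (1 in DESeq2), with or without FH1, where 23.4% of all miRNAs passed the threshold. The median log2 fold change of the list was -0.11 against 0.17 for all tested.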

How the data were processed

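Small RNA libraries from 16 ovarian samples, 1 per sow, were grouped by the labels into LH, LL, FH and FL (n = 4 each). The deposited file holds raw counts per miRNA and library. Per the study's methods the authors trimmed adapters and low-quality reads, mapped clean reads to Sscrofa10.2 with Bowtie2 2.1.0 (version per the submitters' processing notes) and predicted further miRNAs from unmapped reads. The rule for assigning reads to miRNAs is not given in the sources used here. The counts of ssc-miR-132 and ssc-miR-212 were not identical to those of any other entry.

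Entries were kept by filterByExpr (minimum count 10, minimum total 15), scaled by TMM (factors 0.670 to 1.74) and tested with the quasi-likelihood test of edgeR 4.0.16 in R 4.3.3. LH vs. LL and FH vs. FL were fitted on the 8 libraries of their phase. LH vs. FH, LL vs. FL, luteal vs. follicular and the interaction were fitted on all 16. A call needed P under 0.05 before adjustment and a change of 1 or more on the log2 scale, the study's threshold, and p was adjusted by Benjamini-Hochberg over all miRNAs tested. Permutation tests used log2(CPM + 1), and the ratio of both miRNAs used counts plus 0.5. Correlations used 100000 permutations within groups. Alternatives were DESeq2 1.42.0, other scalings and filters, covariates, a replicate block and leaving out each sow.

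On simulated counts with changes of 2 on the log2 scale, edgeR recovered 89 of 173 changed miRNAs in LH vs. LL, 122 of 185 in FH vs. FL and 116 of 174 in luteal vs. follicular. Named miRNAs were the pair, list members past the threshold, and the 3 known miRNAs most like each of the pair by r. The pair, the lists and the tests were chosen with earlier results of these data known. The depth ranged from 8998496 to 37194836 counts per library.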

Additional observations from a re-analysis of the deposited data

Results flagged for a closer look

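In 3 of 12 group values scanned (each miRNA, and their ratio, in each of 4 groups), 1 sow lay far from the other 3, by a gap that chance exceeds in about 1 in 20 groups. ssc-miR-132 was 257 CPM in FH1, against 35.9 to 38.4 CPM in the other FH sows. ssc-miR-212 was 80.4 CPM in the same sow, against 6.66 to 12.7 CPM. Both flags come from a single library, in which the levels of both miRNAs are high. ssc-miR-132 was 322 CPM in LL2, against 179.7 to 198 CPM in the other LL sows, while ssc-miR-212 in LL2 (44.9 CPM) lay within the range of LL.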

How the results depend on the processing

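The direction of ssc-miR-132 in LH vs. LL, LL vs. FL and luteal vs. follicular, and of ssc-miR-212 in the same comparisons, was kept in all alternatives run. Calls at the threshold changed as follows, and the cause was not tested. For ssc-miR-132 in LH vs. LL it was lost in DESeq2 without a filter (1.15), in edgeR without a filter (1.12), with a covariate for parity (1.83) or for the share of clean reads (1.23) and when all 16 libraries were fitted (1.13). The range was 0.86 to 1.55 with each sow left out. For ssc-miR-212 in LH vs. LL it was passed with library size only (1.52), with 0.54 to 1.15 with each sow left out, and it was 0.30 (unadjusted P = 0.817 in edgeR) with a covariate for parity, which in this phase cannot be told apart from fecundity.

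In LL vs. FL, ssc-miR-132 lost the threshold in DESeq2 without a filter (1.60) and without a filter (1.62), with 1.37 to 1.79 with each sow left out, and passed the adjustment in DESeq2 with the filter and in the 8 libraries alone (1.70). ssc-miR-212 passed the threshold in DESeq2 (1.94), with library size only (2.50), TMM on known miRNAs (1.88) and at least 10 counts in 4 libraries (1.96). It also did so with identical entries collapsed (1.98), parity (2.22) and the 8 libraries alone (2.06), with 1.59 to 2.53 with each sow left out. In luteal vs. follicular, ssc-miR-132 passed with library size only (1.24) and parity (1.11), with 0.66 to 1.47 left out, and ssc-miR-212 with parity (1.19), with 0.70 to 1.57 left out.

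In FH vs. FL, ssc-miR-212 passed with parity (-2.74), and leaving out FH1 turned ssc-miR-132 to 0.90 (range from -0.60) and ssc-miR-212 to 0.21 (range from -1.82). In LH vs. FH, ssc-miR-132 ranged from -0.29 to 1.36 with a sow left out, negative without LH1 (-0.29), FH2 (-0.12), FH3 (-0.19) or FH4 (-0.10). ssc-miR-212 ranged from -0.47 to 1.26, positive without LH2 (0.19) or FH1 (1.26), and was 0.17 with parity. The interaction of ssc-miR-212 ranged from 0.62 to 2.77 and passed without FL3 (2.77). The log2 ratio turned in LH vs. LL without LH3 (-0.12), LH4 (-0.11) or LL2 (-0.12), from 0.35 at most, and in LH vs. FH without LH2 (-0.0021), from 0.47 at most.

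Same-numbered sows did not all deviate together in any comparison (r of deviations from -0.448 to 0.307, and none of the comparisons had every pair above 0.1). Replicate numbers were therefore not used as pairs in the main fits, though so few pairs cannot exclude a pairing. With a replicate block ssc-miR-132 was 1.30 in LH vs. LL, no longer past the threshold, 0.20 in FH vs. FL and 1.04 in luteal vs. follicular, past the threshold, and ssc-miR-212 was 2.14 in LL vs. FL, past the threshold. With the block 4 miRNAs were called in FH vs. FL and 39 in the interaction.

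Library size in place of TMM moved the median of all miRNAs by 0.58 in LH vs. LL, 0.32 in FH vs. FL, 0.21 in LH vs. FH and 0.53 in LL vs. FL. Relative to that median ssc-miR-132 was 0.97 in LH vs. LL and ssc-miR-212 0.78. The share of calls with the higher level in LL was 83.8% with library size and 51.1% with TMM in LH vs. LL, and 64.2% and 45.5% in LL vs. FL. The number of all miRNAs called in LH vs. LL was 94 without LH1 and 71 without LL4, and in FH vs. FL 43 without FL1, 30 without FL3 and 11 without FL4. Without a filter it was 158 in LH vs. LL, 93 in FH vs. FL, 154 in LH vs. FH, 250 in LL vs. FL, 203 in luteal vs. follicular and 122 in the interaction. DESeq2 without a filter called 33, 29 and 65 in FH vs. FL, LH vs. FH and LL vs. FL. With the share of clean reads it was 14 for LH vs. LL and 6 for FH vs. FL, with parity 5 in FH vs. FL and with all 16 libraries 37.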
